A study of Mus musculus with 6 samples.

Results

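Mitogen-activated protein kinases (MAPK) are switched off by dual-specificity phosphatases (DUSP), which remove the phosphate groups that activate them, and receptor tyrosine kinase signaling to RAS is restrained by the Sprouty and SPRED proteins. Many of these genes are transcribed in response to the kinases that their products restrain, so that they form negative feedback loops. In the mammary gland, Sprouty proteins are known as regulators of the growth factor signals that control ductal branching. The 10 genes examined here were 6 MAPK phosphatases, *Dusp1*, *Dusp4*, *Dusp5*, *Dusp6*, *Dusp10* and *Dusp16*, and 4 feedback inhibitors of the Sprouty and SPRED families, *Spry1*, *Spry2*, *Spry4* and *Spred1*. They were chosen by name, with earlier results of these data known. Each was found on a single entry among the 37753 entries with values. All 10 genes had a mean of at least 1 FPKM (fragments per kilobase of transcript scaled to the number of mapped fragments, a level corrected for transcript length), and they were therefore among the 12461 genes tested.

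The study asked how gene expression differs between mammary tumor cells without the MAPK JNK and normal mammary epithelial cells. RNA was sequenced from 3 primary cultures of mammary epithelium (MEC) and from 3 tumor cell lines (MEKO) named 199, 233 and 336, with 1 library for each. MEC were isolated from WAPCre+ C57/Bl6J virgin females of 10 to 12 weeks, with 3 to 5 animals in a preparation, and were grown to near confluence on collagen I with fetal calf serum, EGF and insulin. MEKO lines were established from C57/Bl6J mammary tumors of the genotype Mapk8KO Mapk9KO Cre+, the genes of the kinases JNK1 and JNK2, and were moved from collagen I to standard dishes after 2 passages. Both groups carried the Wap-Cre transgene, whose promoter is active in the mammary epithelium of pregnancy and lactation. MEC were taken from virgin mice and the MEKO tumors from mice that had been bred. The methods name EGF and insulin in the medium of MEC but not in the medium of the tumor cells. JNK genotype, tumor origin, parity, medium and time in culture therefore differed together between the groups, and their parts cannot be told apart. The ages of the tumor-bearing mice are not used here.

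The targeted genes were lower in every library labelled as knockout. *Mapk8* was at 23.1, 25.1 and 19.2 FPKM in MEC and at 5.93, 3.12 and 1.37 in lines 199, 233 and 336, and *Mapk9* was at 24.4, 21.5 and 22.1 in MEC and at 7.62, 3.15 and 3.07 in the lines. FPKM values summed to 557991 to 638365 in a library, the absolute depth is unknown, and the relative depth to MEC 1 was between 0.92 and 1.30. Correlations of log2(FPKM + 1) over the tested genes were 0.944 to 0.966 within MEC, 0.856 to 0.903 within MEKO and 0.793 to 0.855 between the groups. Marker genes also differed: the summed FPKM of 9 luminal markers was 6022 to 9731 in MEC and 1118 to 2483 in MEKO, and that of 8 myoepithelial markers was 1341 to 2328 in MEC and 1882, 10.1 and 45.1 in lines 199, 233 and 336. Line 199 stood apart by the sum of 8 fibroblast markers, 1596 FPKM against 185 to 351 in MEC and 3.95 and 19.2 in the other lines. *Col1a1* (600 FPKM), *Vim* (496) and *Col1a2* (408) made up most of this sum, while *Dcn* (0.311, against 3.29 to 6.62 in MEC) and *Lum* (0.0264, against 0.507 to 1.28) were below MEC in line 199. Among the luminal markers, *Pgr* was listed at 0 in all MEKO lines, while *Epcam* remained between 128 and 252 FPKM there.

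In MEC, *Dusp6*, *Dusp5* and *Dusp4* held the highest levels, and the other phosphatase genes were at levels like those of *Spred1*, *Spry1* and *Spry2*. The order of mean FPKM was *Dusp6* (47.8 ± 10.7, SD, n = 3), *Dusp5* (43.3 ± 20.4), *Dusp4* (33.8 ± 3.11), *Dusp1* (21.6 ± 5.99), *Spred1* (21.6 ± 2.31), *Dusp16* (19.6 ± 2.67), *Spry1* (17.1 ± 1.59), *Spry2* (14.8 ± 1.09), *Dusp10* (13.2 ± 4.72) and *Spry4* (3.19 ± 1.08). Neighbours in this order overlapped in their MEC libraries except at the steps from *Dusp4* to *Dusp1* and from *Dusp10* to *Spry4*. In MEKO the order was *Spry1* (39.9 ± 33.7), *Dusp5* (32.1 ± 16.9), *Dusp6* (26.1 ± 11.4), *Dusp4* (24.3 ± 1.33), *Spred1* (16.4 ± 4.61), *Spry2* (12.1 ± 14.9), *Dusp1* (5.82 ± 1.51), *Dusp10* (5.42 ± 3.58), *Dusp16* (5.17 ± 1.92) and *Spry4* (0.0982 ± 0.0527), with gaps after *Dusp4* and after *Dusp16* only. The SD of *Spry1* and *Spry2* in MEKO was close to their means, since the lines differed from each other.

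**Figure D1:**
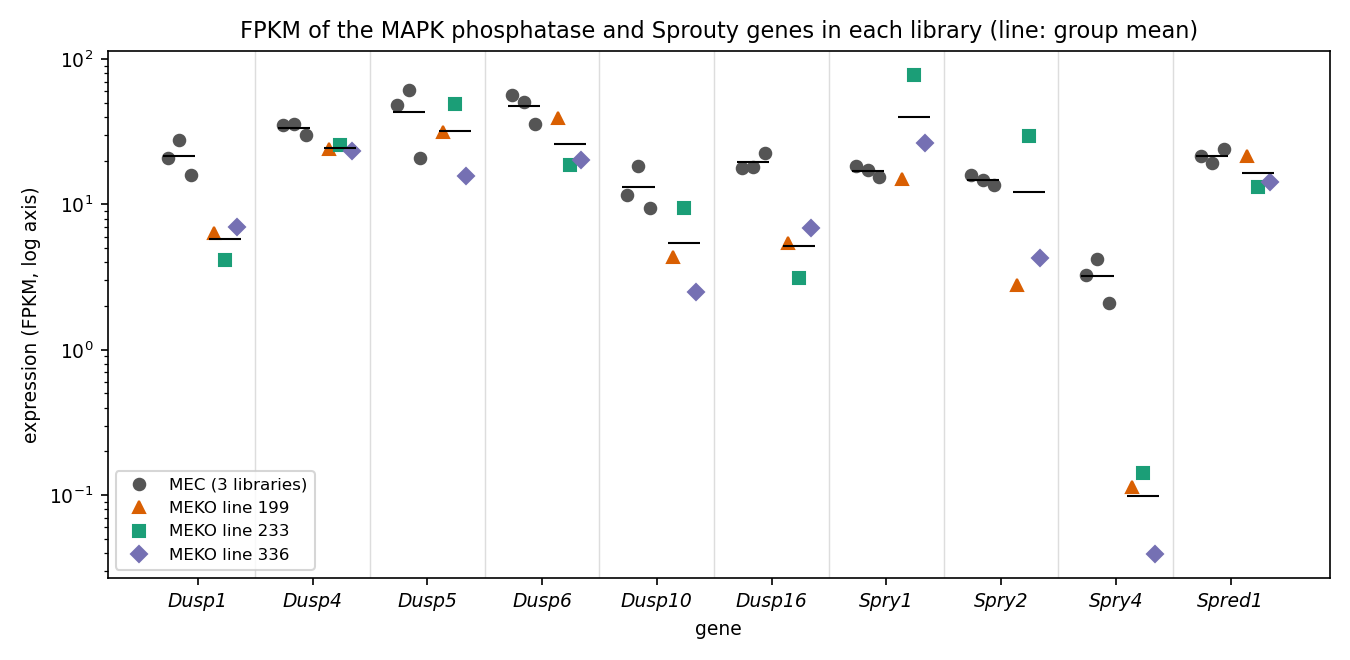
FPKM on a log axis of each of the 10 genes in the 3 MEC libraries (grey circles) and in MEKO lines 199 (triangles), 233 (squares) and 336 (diamonds), with the mean of each group as a short line. For *Dusp1*, *Dusp4*, *Dusp16* and *Spry4* every MEKO line lies below every MEC library, and for *Spry1* and *Spry2* the lines lie on either side of MEC.

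A difference is MEKO minus MEC on the log2(FPKM + 1) scale with its standard error (SE), which understates the change of genes at low levels, and a fold is the ratio of group means in FPKM. A gene was called with an adjusted p under 0.05 in limma, Benjamini-Hochberg over the 12461 genes, and a difference beyond 0.75. The exact permutation test (two-sided) on 3 against 3 libraries cannot give a p below 0.1. Of the 10 genes, 3 were called lower in MEKO (*Dusp1*, *Dusp16* and *Spry4*), against 7.26% of all tested genes, and 0 were called higher, against 2.64% of all tested genes. *Spry4* reached the mean of 1 FPKM only through MEC (3.19 FPKM, against 0.0982 in MEKO). Such a gene can only come out lower, here and in the counts that follow. At an unadjusted p under 0.05, limma gave 6 of the 10, against 28.2% of all tested genes. Every MEKO line was below every MEC library for 4 of the 10 genes, against 18.7% of all tested genes, and above every MEC library for 0, against 18.5%. The difference was below 0 for 9 of the 10, against 48.8% of all tested genes, with a median of -0.90 against 0.01 over all tested genes.

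*Dusp1* encodes a nuclear phosphatase of p38, JNK and ERK and is an immediate early gene. It was at 21.0, 27.9 and 15.9 FPKM in MEC and at 6.32, 4.12 and 7.01 FPKM in lines 199, 233 and 336. All MEKO lines were below all MEC libraries, at 29.3%, 19.1% and 32.4% of the MEC mean. *Dusp1* fell 3.71-fold, with a difference of -1.72 (SE 0.27, limma adjusted p = 0.0153, exact permutation p = 0.1). Without MEC 1 or without MEC 2 the call was lost, with limma adjusted p = 0.0788 and 0.066. *Dusp1* lies on chromosome 17 from 26505590 to 26562128 on the minus strand (GRCm38) and shares only 11 exonic bases, 0.332%, with *Ergic1* on the other strand.

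The sequence before the start of *Dusp1* is shown because this gene was called and the window holds a full cyclic AMP response element (CRE), a binding site of the CREB and ATF factors. It is RefSeq sequence of GRCm38.p6, chr17:26508520-26508722 on the minus strand, written 5′ to 3′ with the CRE in capitals. It ends 47 bases before the RefSeq start, because an annotated transcript begins there, and the bases after that point are not shown.
Dusp1: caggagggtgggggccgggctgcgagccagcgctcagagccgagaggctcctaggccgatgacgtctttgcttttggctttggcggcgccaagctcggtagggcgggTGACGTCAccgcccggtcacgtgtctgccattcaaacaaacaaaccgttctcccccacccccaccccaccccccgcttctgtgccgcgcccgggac
The CRE lies 143 to 136 bases before the RefSeq start. RefSeq promoter entries were found for 8 of the 10 genes, all except *Dusp4* and *Spry4*. The 250 bases before the RefSeq start were searched on both strands for an AP1 site (TGANTCA), the CRE (TGACGTCA), an ETS site (CCGGAAG) and the CArG box of serum response factor, and no match overlapped a match of another motif. Among 32851 promoters, 6.75% held the AP1 letters, 1.55% the CRE, 6.91% the ETS letters and 1.47% a CArG box. Of the 8 promoters, 1 held the CRE (*Dusp1*), 1 held CArG boxes (*Dusp5*) and 0 held the AP1 or ETS letters.

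*Dusp4* and *Dusp5* also encode inducible nuclear phosphatases, and the product of *Dusp5* acts on ERK. *Dusp4* was at 35.4, 35.7 and 30.2 FPKM in MEC and at 24.0, 25.8 and 23.2 FPKM in lines 199, 233 and 336. Its groups did not overlap and each varied little, but the change was small. The difference was -0.46 (SE 0.14, 95% interval -0.79 to -0.12, limma adjusted p = 0.0956, exact permutation p = 0.1), and *Dusp4* was not called. *Dusp4* lies on chromosome 8 from 34807297 to 34819894 on the plus strand.

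*Dusp5* was at 48.0, 61.0 and 21.0 FPKM in MEC and at 31.3, 49.3 and 15.6 FPKM in lines 199, 233 and 336. The groups overlapped, since MEC 3 was below lines 199 and 233. The difference was -0.44 (SE 0.53, 95% interval -1.70 to 0.83, limma adjusted p = 0.619, exact permutation p = 0.6), an interval that holds both a fall and a rise beyond 0.75. Leaving out 1 library gave -0.88 (without MEC 3) to -0.00922 (without line 336). Part of its exons, 22.1% of 2473 bases, is shared with an antisense gene on the other strand, and counting by strand is not stated in the sources used here. *Dusp5* is the gene among the 8 whose promoter held CArG boxes, which are shown in capitals as a contrast to *Dusp1*. The window is chr19:53528895-53529108 on the plus strand (RefSeq, GRCm38.p6). It ends at the annotated gene, 53529109 to 53542431, which begins 36 bases before the RefSeq start.
Dusp5: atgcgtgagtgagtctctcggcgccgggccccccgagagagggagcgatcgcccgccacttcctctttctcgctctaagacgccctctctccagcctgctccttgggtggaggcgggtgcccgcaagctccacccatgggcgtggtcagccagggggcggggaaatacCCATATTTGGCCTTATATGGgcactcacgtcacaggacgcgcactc
The capitals are 2 adjacent CArG boxes, at 82 to 73 and at 72 to 63 bases before the RefSeq start.

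*Dusp6* encodes the cytoplasmic phosphatase of ERK, whose transcript is commonly read as a gauge of ERK activity. It was at 56.6, 50.9 and 35.9 FPKM in MEC and at 39.1, 18.8 and 20.2 FPKM in lines 199, 233 and 336. Lines 233 and 336 were below every MEC library, and line 199 was above MEC 3. The difference was -0.90 (SE 0.32, 95% interval -1.68 to -0.13, limma adjusted p = 0.131, exact permutation p = 0.2). Without line 199, which also had the highest fibroblast marker sum, the difference was -1.23 and *Dusp6* was called (limma adjusted p = 0.023), and it was also called with sample weights. Without line 233 the difference was -0.72 (limma adjusted p = 0.26). *Dusp6* lies on chromosome 10 from 99263231 to 99267489 on the plus strand.

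*Dusp10* and *Dusp16* encode phosphatases that act mainly on JNK and p38. *Dusp16* was at 17.9, 18.1 and 22.7 FPKM in MEC and at 5.46, 3.12 and 6.93 FPKM in lines 199, 233 and 336. All MEKO lines were below all MEC libraries, at 27.9%, 16.0% and 35.4% of the MEC mean. *Dusp16* fell 3.79-fold, with a difference of -1.78 (SE 0.27, limma adjusted p = 0.0138, exact permutation p = 0.1). Without any 1 of the MEC libraries the call was lost, with limma adjusted p between 0.0615 and 0.0709. *Dusp16* lies on chromosome 6 from 134715468 to 134792625 on the minus strand.

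*Dusp10* was at 11.6, 18.5 and 9.41 FPKM in MEC and at 4.37, 9.41 and 2.48 FPKM in lines 199, 233 and 336. Lines 199 and 336 were below every MEC library, and line 233 was level with MEC 3. The difference was -1.24 (SE 0.44, 95% interval -2.30 to -0.17, limma adjusted p = 0.132, exact permutation p = 0.2), and *Dusp10* was not called. *Dusp10* lies on chromosome 1 from 184013302 to 184075636 on the plus strand. The promoter of *Dusp16* is shown because this gene was called together with *Dusp1*, and it held none of the 4 motifs, so no letters are in capitals. The window is chr6:134792629-134792878 on the minus strand (RefSeq, GRCm38.p6).
Dusp16: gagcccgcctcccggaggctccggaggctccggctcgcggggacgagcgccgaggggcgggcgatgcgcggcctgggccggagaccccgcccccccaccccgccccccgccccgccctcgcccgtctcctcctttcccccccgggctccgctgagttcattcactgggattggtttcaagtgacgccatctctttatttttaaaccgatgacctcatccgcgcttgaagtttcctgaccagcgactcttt
The *Dusp1* and *Dusp16* windows are both rich in G and C, at 68.0% and 68.4%.

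Summed over the 6 phosphatase genes, MEC held 179 ± 39.7 FPKM and MEKO 98.9 ± 20.3 FPKM (SD, n = 3 each). The sums were 190, 212 and 135 in MEC and 111, 111 and 75.5 in lines 199, 233 and 336. The lowest MEC preparation was thus above the highest MEKO line, and MEC 3 was the lowest MEC library for *Dusp1*, *Dusp4*, *Dusp5*, *Dusp6* and *Dusp10*.

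The Sprouty genes divided. *Spry4*, an inhibitor of signaling from receptor tyrosine kinases to RAS and ERK, was at 3.26, 4.23 and 2.09 FPKM in MEC and at 0.114, 0.141 and 0.0394 FPKM in lines 199, 233 and 336. All MEKO lines were below all MEC libraries, at 3.57%, 4.42% and 1.23% of the MEC mean. The ratio of group means was 32.5-fold lower in MEKO, while the difference on the log2(FPKM + 1) scale was -1.90 (SE 0.27, limma adjusted p = 0.0119, exact permutation p = 0.1). The gap between these values comes from the pseudocount, and as log2 of the ratio of means the difference was -5.02. *Spry4* was the lowest of the 10 genes, its MEC mean stood at the 17.6th percentile of tested genes, and the number of fragments behind the MEKO values is unknown. Without MEC 1 or without MEC 2 the call was lost, with limma adjusted p = 0.0652 and 0.0511. *Spry4* lies on chromosome 18 from 38586247 to 38601415 on the minus strand.

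*Spry1* and *Spry2* encode inhibitors of growth factor signaling that are also induced by it. *Spry1* was at 18.5, 17.3 and 15.4 FPKM in MEC and at 14.9, 78.2 and 26.6 FPKM in lines 199, 233 and 336. Line 233 was at 458% of the MEC mean and line 336 at 156%, while line 199 was just below the lowest MEC library. The difference was 0.86 (SE 0.55, 95% interval -0.48 to 2.19, limma adjusted p = 0.355, exact permutation p = 0.4), and *Spry1* was not called. It was 0.22 without line 233 and 1.37 without line 199 (limma adjusted p = 0.651 and 0.104). Its exons share 710 bases, 24.4%, with a gene model on the other strand. *Spry1* lies on chromosome 3 from 37639947 to 37644598 on the plus strand.

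*Spry2* was at 15.9, 14.7 and 13.7 FPKM in MEC and at 2.77, 29.4 and 4.27 FPKM in lines 199, 233 and 336. Lines 199 and 336 were at 18.8% and 28.9% of the MEC mean and below every MEC library, whereas line 233 was at 199% and above every MEC library. The difference over all lines was -0.90 (SE 0.75, 95% interval -2.71 to 0.91, limma adjusted p = 0.469, exact permutation p = 0.4). Without line 233 it was -1.82 and *Spry2* was called (limma adjusted p = 0.0148), while it was -0.31 without line 199 and -0.56 without line 336 (limma adjusted p = 0.794 and 0.709). *Spry2* lies on chromosome 14 from 105891947 to 105896819 on the minus strand.

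**Figure D2:**
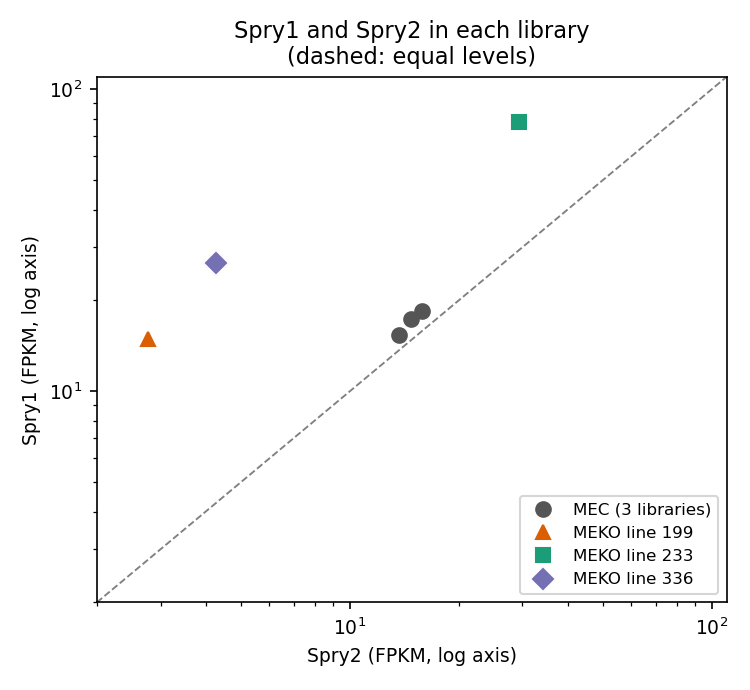
*Spry1* against *Spry2* in FPKM on log axes, with a point for each of the 6 libraries and a dashed line of equal levels. The 3 MEC libraries lie together just above the line, and the 3 MEKO lines lie apart from each other and further above it, with line 233 the highest for both genes.

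*Spred1* encodes a membrane protein that brings the RAS GTPase-activating protein neurofibromin to RAS. It was at 21.5, 19.3 and 23.9 FPKM in MEC and at 21.7, 13.2 and 14.3 FPKM in lines 199, 233 and 336. Line 199 was within the MEC range and the other lines were below it. The difference was -0.40 (SE 0.22, 95% interval -0.93 to 0.12, limma adjusted p = 0.279, exact permutation p = 0.3). *Spred1* lies on chromosome 2 from 117121374 to 117182279 on the plus strand. The summed FPKM of the 4 Sprouty and SPRED genes was 59.1, 55.6 and 55.0 in MEC and 39.4, 121 and 45.2 in lines 199, 233 and 336, so line 233 was above and the other lines below all MEC libraries.

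The lines differed in which genes were low. With 1 library for each line no test was possible, and the values are differences of a line from the MEC mean on the log2(FPKM + 1) scale. In line 199, 5 of the 10 genes were lower by more than 0.75 (*Dusp1*, *Dusp10*, *Dusp16*, *Spry2* and *Spry4*), against 17.4% of all tested genes, and 0 were higher by more than 0.75, against 13.0%. In line 233, 4 were lower (*Dusp1*, *Dusp6*, *Dusp16* and *Spry4*), against 18.0%, and 2 were higher (*Spry1* and *Spry2*), against 10.0%. In line 336, 7 were lower (*Dusp1*, *Dusp5*, *Dusp6*, *Dusp10*, *Dusp16*, *Spry2* and *Spry4*), against 18.7%, and 0 were higher, against 11.4%. Over the 10 genes the median difference was -0.91, -0.53 and -1.33 in lines 199, 233 and 336, beside 0.01, 0.00158 and 0.02 over all tested genes. *Dusp1*, *Dusp16* and *Spry4* were beyond 0.75 in all 3 lines, *Dusp4* and *Spred1* in none, and *Spry2* in all 3 but in opposite directions. The MEC libraries are shared by these comparisons.

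**Figure D3:**
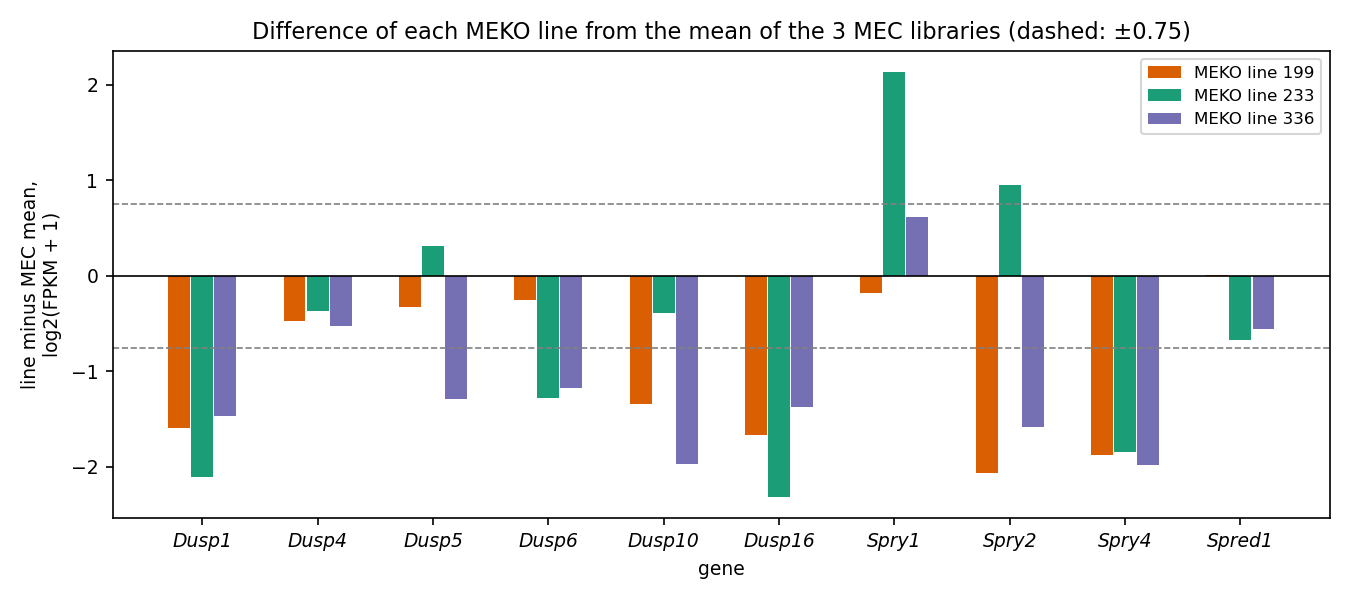
Difference of each MEKO line from the mean of the 3 MEC libraries on the log2(FPKM + 1) scale for the 10 genes, with dashed lines at 0.75 in either direction. Bars of *Dusp1*, *Dusp16* and *Spry4* pass the lower line in all 3 MEKO lines, the bars of line 233 for *Spry1* (2.14) and *Spry2* (0.95) pass the upper line, and the bar of *Spred1* in line 199 (0.01) is too short to see.

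Other genes of the same pathway were read from lists, and the lists were described by their counts. Of the other classical MAPK phosphatases, 3 of 4 were tested and 1 was called lower, *Dusp8*, which encodes a phosphatase of JNK and p38 (difference -1.42, SE 0.26, limma adjusted p = 0.0225), with a list median of -0.52. Of the 10 atypical small DUSP genes, 8 were tested on an entry of their own, with a median of -0.22. Among these 8, *Dusp22* (-2.52, limma adjusted p = 0.00654) and *Dusp3* (-0.87, adjusted p = 0.0316) fell, and *Dusp18* rose (1.74, adjusted p = 0.0341). *Dusp19* lay on an entry shared with *Nup35*, which was not called (0.52, limma adjusted p = 0.108) and is not counted here. *Spred2* and *Spred3*, the 2 tested genes among the other Sprouty and SPRED genes, were not called, with differences of 0.62 and 0.33. Leaving out MEC 1, MEC 2 or MEC 3 left 0 calls among the other classical phosphatases and 1 among the atypical genes, and leaving out line 336 also left 1 among the atypical genes. The other classical phosphatases held 2 calls without line 199 or without line 336.

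Of 14 other feedback inhibitors of receptor and RAS-ERK signaling, 1 was called lower, *Ier3*, an immediate early gene (-1.47, limma adjusted p = 0.0237), and the median was -0.26. Of 20 tested transcripts known to respond to ERK, 1 fell, *Fos*, a subunit of AP1 (-2.19, adjusted p = 0.00903), and 1 rose, *Myc*, a growth-promoting transcription factor (1.03, adjusted p = 0.0486), with a median of -0.21. The 18 genes of the RAS-ERK cascade gave 0 calls in limma, and the median was 0.12. At an unadjusted p under 0.05, limma gave 3 of the 18, against 28.2% of all tested genes. The feedback list held 0 calls without MEC 1, without MEC 2 or without line 233, and 3 without line 199. The ERK-responsive list held 0 calls without MEC 1, 1 without MEC 2, without MEC 3 or without line 336, and 3 without line 199.

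Of 8 tested genes of the p38 and JNK cascade, the 2 called were the targeted genes, *Mapk8* (-2.52, limma adjusted p = 0.0146) and *Mapk9* (-2.17, adjusted p = 0.0122), and the median was 0.09. Of 9 receptor tyrosine kinases tested on an entry of their own, 1 fell and 1 rose, with a median of -0.65. *Kit*, the receptor of stem cell factor, fell (-3.73, limma adjusted p = 0.000927). *Igf1r*, the receptor of insulin-like growth factor, rose (0.93, adjusted p = 0.0233). *Fgfr2*, on an entry shared with *Ctbp2*, was not counted (0.12, limma adjusted p = 0.773). *Kit* was listed at 0 in lines 199 and 233 and was at 0.129 FPKM in line 336, against 9.90 to 14.9 FPKM in MEC. It passed the filter only through MEC and could only come out lower. The 10 genes thus had a lower median than these pathway lists, and no list was tested as a set. Medians of the tested cell type markers were -2.49 (luminal), -3.37 (myoepithelial), -2.21 (fibroblast) and -1.88 (endothelial). The 1 tested adipocyte marker was at -1.96 and the 1 tested leukocyte marker at -0.04. All tested endothelial markers and the adipocyte marker, *Fabp4*, had MEKO means under 1 FPKM and passed the filter only through MEC. The same held for *Elf5*, *Pgr*, *Myh11*, *Oxtr*, *Mylk* and *Dcn* of the other marker lists. Such genes can only come out lower. Without any 1 of the MEC libraries the p38 and JNK list held 0 calls, the targeted genes included, and the receptor list 1. The receptor list also held 1 call without line 336.

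**Figure D4:**
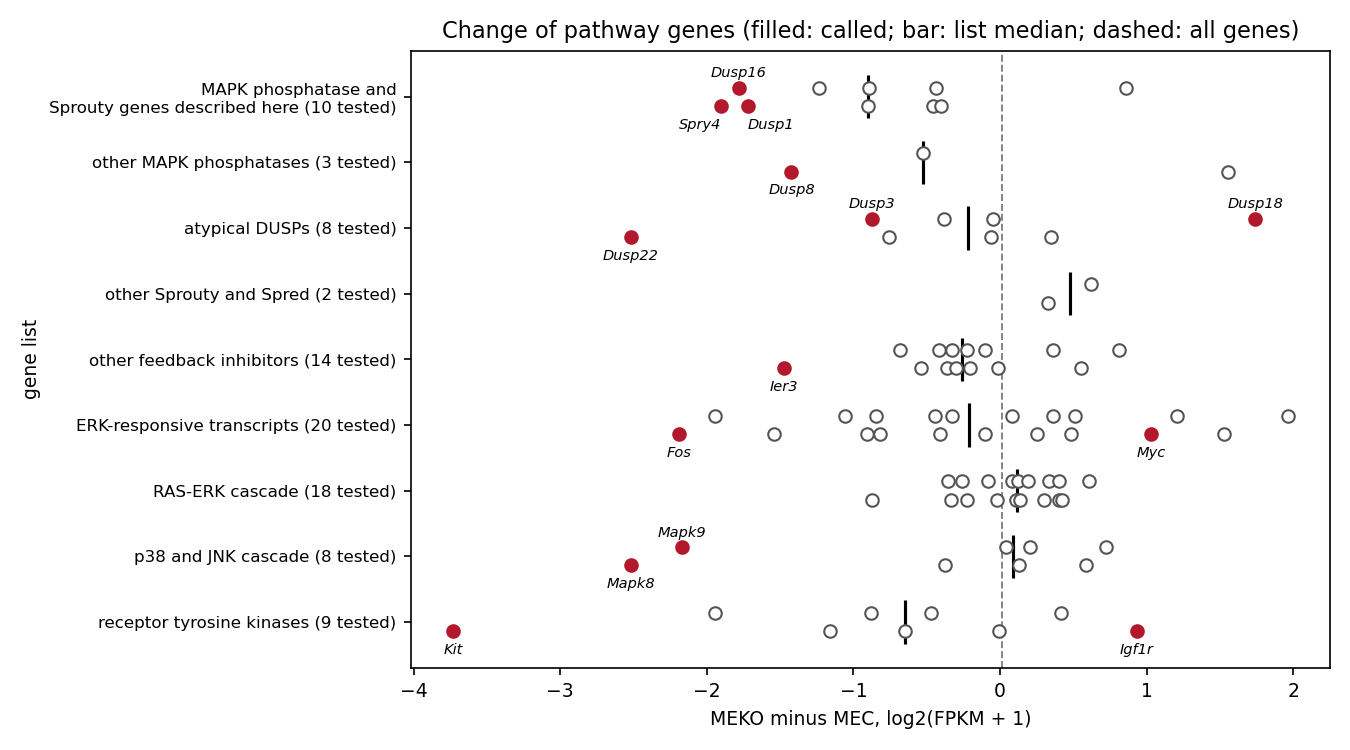
Difference between MEKO and MEC on the log2(FPKM + 1) scale for the genes of 9 lists that were tested on an entry of their own. Each gene is a point, filled and named where it was called. The short bars are list medians, which run from -0.90 for the 10 genes to 0.47 for the other Sprouty and SPRED genes, and the dashed line is the median of all tested genes, 0.01.

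The genes most like the 2 members with the largest differences were found by the root mean square (RMS) difference of log2(FPKM + 1) over the 6 libraries after each gene was centred on its own mean. For *Spry4* they were *Adamts3* (RMS 0.0763), *Faim2* (0.0771) and *Trpc6* (0.0858), and 38 genes lay within 0.25. *Adamts3* was at 2.98, 3.74 and 2.19 FPKM in MEC and at most 0.00566 FPKM in MEKO. *Faim2* and *Trpc6* were at most 0.0535 FPKM in MEKO, and like *Spry4* all 3 passed the filter only through MEC. On the log2(FPKM + 1) scale, genes at a similar low level in MEC and near 0 in MEKO come out close. This likeness to *Spry4* therefore follows from the levels. For *Dusp16* they were *Rhoc* (0.121), *Fam210b* (0.138) and *Cdh1* (0.146), which encodes the epithelial adhesion protein E-cadherin, and 32 genes lay within 0.25. *Cdh1* was at 259, 294 and 319 FPKM in MEC and at 102, 71.1 and 104 FPKM in lines 199, 233 and 336.

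Cell type markers also differed between the groups. Of the 9 tested luminal markers, 5 were called lower (*Krt8*, *Krt19*, *Epcam*, *Elf5* and *Pgr*). Of the 8 tested myoepithelial markers, 3 were called lower (*Myh11*, *Oxtr* and *Mylk*), and over all tested genes the share was 7.26%. Without line 199 the count of calls was 7 for the myoepithelial markers, and without MEC 1 or MEC 2 it was 3 for the luminal markers. *Krt18*, *Esr1*, *Cldn3* and *Cldn4* were not called, with differences of -2.49, -0.02, -0.56 and -0.71. *Krt5*, *Krt14* and *Trp63*, also not called, were above every MEC library in line 199 and below every MEC library in lines 233 and 336. The summed FPKM of 5 endothelial markers was 16.9, 19.7 and 2.13 in MEC and 0.164 to 2.01 in MEKO. MEC 3, the lowest MEC library there, was also lowest for *Spry1*, *Spry2*, *Spry4* and each of the phosphatase genes but *Dusp16*. The 5 leukocyte markers summed to 4.50 to 8.16 FPKM in MEC and 0.801 to 23.5 in MEKO. The highest sum, in line 336, was nearly all *Cd68* (23.5 FPKM), while *Ptprc* was listed at 0 and *Itgam* was at 0.00633 FPKM there, below MEC. Of 4 adipocyte markers *Adipoq*, *Plin1* and *Cidec* were listed at 0 in all MEC. *Fabp4* was present there, at 7.74, 11.7 and 1.28 FPKM, against 1.12, 0.0898 and 0.845 FPKM in lines 199, 233 and 336. In cultured cells measured in bulk, fewer cells of a type and less RNA in each cell cannot be told apart, and the part of these marker differences in the values of the 10 genes was not tested.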

How the data were processed

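RNA-seq libraries of 3 MEC preparations and 3 MEKO tumor cell lines were analysed, grouped by their genotype labels. The authors aligned the reads to GRCm38 with Bowtie2 and TopHat2 2.0.14 and computed FPKM values with Cufflinks 2.2.1, normalized for transcript length and library size. The deposited FPKM table holds 37755 entries, of which 2 hold no values, and 15940 were at 0 in every library. Read counts cannot be taken from it, so no counting interval or detection limit was computed, and genes at low levels are measured least precisely. Strand-specific counting is not stated in the sources used here.

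MEKO was compared with MEC in R 4.3.3 with limma 3.58.1 on log2(FPKM + 1), with a mean-variance trend, for 12461 genes with a mean of at least 1 FPKM over the 6 libraries. P-values were adjusted by the Benjamini-Hochberg method over these genes, and a call needed an adjusted p under 0.05 and a difference beyond 0.75 on the log2 scale. The script was tested on simulated data. Single genes were tested by exact permutation (two-sided), and intervals are 95% intervals of the limma fit. Each library is a separate preparation or line, and no batch is labelled.

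The 10 genes, the pathway lists and the marker lists were chosen with earlier results of these data known, and each list is described by counts without a set test. List counts and medians cover genes with an entry of their own, which left out *Dusp19*, *Map2k7* and *Fgfr2*. All 10 genes are named, the called genes of each pathway list with the largest differences (up to 4 a list), and the 3 genes nearest in pattern to the 2 most changed members. Other genes in the text, such as *Spred2*, *Spred3*, *Dusp9* and the cell type markers, were named after their values were seen. Alternatives were pseudocount, filter on low values, normalization, variance model, fold threshold and leaving out each library. Positions are from GENCODE M21 and promoter sequences from RefSeq, cut off where an annotated transcript of the gene began.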

Additional observations from a re-analysis of the deposited data

How the results depend on the processing

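The difference of each of the 10 genes kept its sign under every alternative that gave a value. Over all genes, 1234 were called (905 lower, 329 higher), against 738 with a mean FPKM of at least 5 and 1978 with sample weights. Leaving out 1 library gave 300 to 1886 called genes: 300 without MEC 1, 336 without MEC 2, 560 without MEC 3 and 1886 without line 199. Of the 10 genes, 3 were called, and 0 to 4 when 1 library was left out: 0 without MEC 1 and without MEC 2, 2 without MEC 3 (*Dusp16* lost), 4 without line 199 (*Dusp6* joined) and 4 without line 233 (*Spry2* joined). These fits had 5 libraries in place of 6. With sample weights 4 were called, with *Dusp6* added, and a mean FPKM of at least 5 left *Spry4* untested and 2 called. Quantile normalization moved the median of all genes from 0.01 to 0.10 and the calls to 783 lower and 477 higher, with the same 3 of the 10 genes called. The RAS-ERK cascade and the other Sprouty and SPRED genes gave 0 calls under every alternative, while the ERK-responsive transcripts gave 2 calls, 6 with sample weights and 0 to 3 when 1 library was left out. No paired analysis was possible because the MEC numbers and the MEKO line numbers share no value. The unknown depth limits *Spry4* most, since its MEKO values were under 0.15 FPKM.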

Other observations

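The ratio of *Spry1* to *Spry2* FPKM was looked at after the values had been seen. It was 1.17, 1.18 and 1.12 in MEC and 5.38, 2.66 and 6.23 in lines 199, 233 and 336, higher in all 3 lines than in every MEC library (exact permutation p = 0.1, the smallest that 3 against 3 can give). Of the 45 pairs among the 10 genes, 16 did not overlap between the groups on the log2(FPKM + 1) scale, in either direction. The share over pairs of all tested genes was not computed. As single genes, 18.7% of all tested genes were lower and 18.5% higher in MEKO without overlap, so a ratio without overlap is not unusual here. Among the 45, *Spry1* and *Spry2* had the smallest range over the MEC libraries, 0.0645 on the log2 scale. *Spry1* and *Spry2* by themselves were not called. The exons of *Spry1* share bases with a gene model on the other strand, whose part in the ratio was not tested.

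Among the other classical phosphatases, *Dusp9* was higher in every MEKO line, at 5.29, 6.17 and 2.39 FPKM in MEC and 17.1, 23.8 and 7.66 FPKM in lines 199, 233 and 336. Its difference was 1.56 (SE 0.46), and it was not called (limma adjusted p = 0.0878). Every MEKO line was above every MEC library for 18.5% of all tested genes, and *Dusp9* was picked after its values were seen.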
